A study of Danio rerio with 15 samples.

Results

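Tight junctions seal the space between neighbouring epithelial or endothelial cells. Most of the genes described here encode their claudins, occludin and MARVEL proteins, one of their immunoglobulin-type adhesion receptors, and the plaque proteins beneath them. The set holds every gene of the deposited tables whose symbol begins with cldn, ocln, tjp, marveld, cgn or f11r, which is 46 of 23926 genes: 30 claudin genes (cldn), 2 occludin genes (ocln), 4 MARVEL domain genes (marveld), 2 genes of junctional adhesion molecule A (f11r), 5 zonula occludens genes (tjp) and 3 cingulin genes (cgn). They were measured by RNA-seq of rRNA-depleted total RNA in the caudal fin of AB wild-type zebrafish, cut into distal, middle and proximal regions, with 5 libraries per position, and each library pools the fin pieces of 4 fish, 2 of them male and 2 female. No treatment, injury or age is given in the labels, and the question behind the series is which molecules differ along the axis of the fin and might mark position in it. A further 19 genes are called claudin, occludin or MARVEL only in the name column or the reference list of names, and are not members. Members were taken by symbol alone, marveld1, cldnd1a and cldnd1b among them. A place in the set therefore does not show that a protein sits in the junction.

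In a tight junction, claudins form the strands between cells and set which ions pass, occludin and its relative tricellulin span the same membranes, with tricellulin gathered where 3 cells meet, and zonula occludens proteins tie all of these to actin together with cingulin and paracingulin. In fish skin, the epidermis is exposed to fresh water and its junctions hold back the loss of salts. Claudins also seal blood vessels and the myelin sheath of nerves, so a piece of fin holds junctions of several tissues. Zebrafish carry many claudin genes, some in duplicate pairs and some side by side on a chromosome.

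The deposited tables give 1 mean normalized count (reads divided by a size factor of the library) per position, and the digits of these means gave back the value of every library for 44 of the 46 genes. The 15 libraries hold between 9882873 and 13381719 reads in the genes solved in this way. The libraries of each position are numbered here by size factor and not by the labels' replicate numbers. A gene is called where the adjusted p of the authors' DESeq test is under 0.05. Transcript lengths were not at hand, so levels are compared between positions and never between genes. In pooled pieces of tissue, fewer cells of a type and less RNA per cell cannot be told apart.

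Most tight junction genes that differed between the ends of the fin were higher in its distal part. In the authors' deposited table of distal against proximal fin, 45 of the 46 genes were measured, and 18 were higher in distal fin, 9 were lower and 18 were not called. Of all 23404 genes in that table, 36.0% were called, 17.9% as higher and 18.1% as lower. All 18 higher genes had a mean of at least 20 normalized counts over the 2 positions, as did 4 of the 9 lower ones. Among the 34 members at that level 18 were higher and 4 lower, beside 23.3% higher and 20.8% lower of all genes at that level. The median log2 fold change of these 34 was 0.42, and that of all genes at that level was 0.00. Lower calls were made in the claudins alone, where 9 were higher and 9 lower of 29 measured. Of the 19 claudins at a mean of at least 20, 9 were higher and 4 lower. The 4 of 19 lower are near the 20.8% of all genes at that level. Of the 16 other genes, 9 were higher and 0 lower. Of these 16, the authors' DESeq test had 0 lower at an unadjusted p under 0.05 as well, and limma on the recovered counts had 0 lower at either p. Limma on the recovered counts tested 37 members and called 22 higher and 5 lower in distal than in proximal fin, while it called 51.5% of all genes, 25.8% as higher and 25.7% as lower. The libraries of the 2 ends did not overlap for 21 of the 34 members at a mean of at least 20, 18 of them higher and 3 lower in distal fin, and for 38.1% of all genes at that level. Summed over the 44 recovered genes, the distal libraries held 63128 to 69152 normalized counts, the middle libraries 51240 to 54476 and the proximal libraries 42664 to 46101. These sums rest mainly on the few genes with the most reads.

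**Figure D1:**
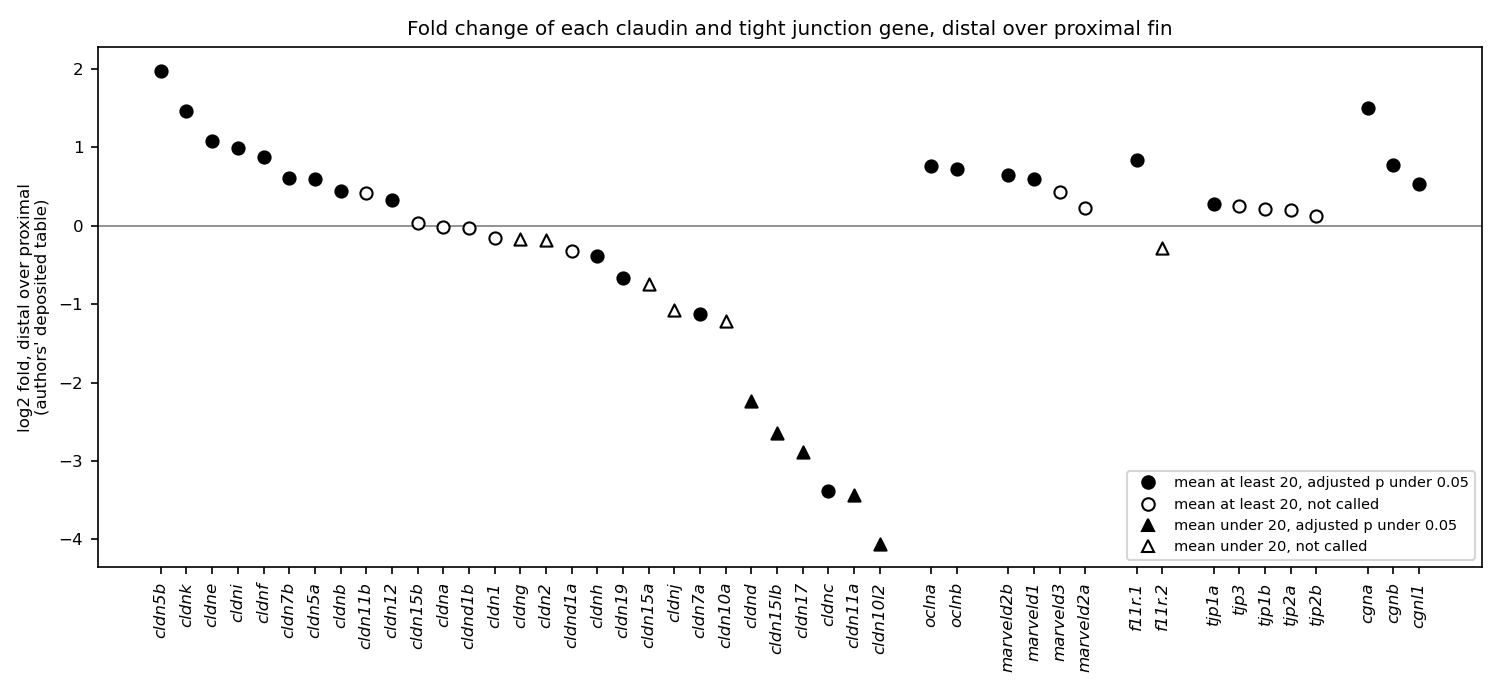
Log2 fold change, distal over proximal fin, of the 45 measured genes in the authors' deposited table, grouped by family (claudin, occludin, MARVEL, JAM-A, zonula occludens, cingulin). Circles have a mean of at least 20 normalized counts and triangles less, and filled symbols have an adjusted p under 0.05; claudins run from 1.98 (cldn5b) down to -4.06 (cldn10l2), and no filled symbol of the other families lies under 0.

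The claudin with the largest rise was cldn5b, which in zebrafish marks the endothelium of blood vessels. It measured 554, 504, 407, 447 and 436 normalized counts in the 5 distal libraries, 151, 179.6, 132, 157 and 126 in the middle libraries and 97.7, 154, 116, 111 and 116 in the proximal libraries. All distal libraries lay above all others, and the middle and proximal libraries overlapped. The authors' deposited table gives a 3.94-fold higher level in distal than in proximal fin, with an adjusted p of 3.32e-40. Its duplicate cldn5a, known from the barrier around the zebrafish brain ventricles, averaged 83.6 ± 11.1 normalized counts in distal, 48.3 ± 7.69 in middle and 55.3 ± 6.42 in proximal fin (SD, n = 5 each). The authors' deposited table has it 1.51-fold higher in distal than in proximal fin, with an adjusted p of 0.0067. Of 14 endothelial marker genes, 6 were higher in distal than in proximal fin and 4 were lower, beside 17.9% of all genes higher and 18.1% lower. Of all genes with a mean of at least 20, as most of these markers have, 23.3% were higher and 20.8% lower. The summed level of the 14 was 4358 to 4887 normalized counts in distal libraries, 3439 to 3813 in middle libraries and 3474 to 4402 in proximal libraries. The receptor gene tie1 averaged 491 ± 70.2 in distal and 276 ± 38.3 in proximal fin and the transcription factor gene erg 122 ± 15.3 in distal and 60.96 ± 7.68 in proximal fin (SD, n = 5 each), while vwf, coding for von Willebrand factor, averaged 135 ± 22.1 in distal and 260.1 ± 41.4 in proximal fin, and the receptor gene tek 47.8 ± 10.8 in distal and 75.5 ± 17.6 in proximal fin. The marker cdh5 (VE-cadherin), named after its values were seen, was at 3.24 ± 1.51 in distal, 1.52 ± 0.88 in middle and 35.4 ± 13.9 in proximal fin. Some better read markers, also named after their values were seen, did not fall with it. The gene kdrl was at 962 ± 62.9 in distal and 924 ± 154 in proximal fin and was not called. Called higher in distal fin were kdr (1481 ± 128 in distal, 1209 ± 114 in proximal fin) and pecam1 (412 ± 24.3 in distal, 269 ± 21.8 in proximal fin). No marker of the list was at 0 in the mean of a position. The part of vessel content in the values of cldn5b and cldn5a was not tested.

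The gene cldnk, expressed by myelinating cells in zebrafish, was also higher at the tip. Its distal libraries held 192, 272, 302, 232 and 263 normalized counts, its middle libraries 128, 93.2, 140.5, 137 and 139 and its proximal libraries 81.1, 77.7, 102, 91.4 and 107. The distal libraries did not overlap with the others. This is a 2.75-fold difference of distal over proximal fin in the authors' deposited table, and the adjusted p was 1.62e-16. The claudin of Schwann cell junctions in the mouse, cldn19, went the other way, with 218, 242, 243, 203 and 209.8 normalized counts in distal libraries, 271, 267, 288, 249 and 273 in middle libraries and 366, 316, 312, 394 and 377 in proximal libraries. No position overlapped with another. Distal fin was 1.58-fold lower than proximal fin in the authors' deposited table, and the adjusted p was 3.02e-06. Of 13 Schwann cell and myelin genes, 3 were higher in distal than in proximal fin and 8 were lower, beside 17.9% of all genes higher and 18.1% lower. The myelin basic protein gene mbpa averaged 84.6 ± 14.2 in distal and 472 ± 28.1 normalized counts in proximal fin, the proteolipid gene plp1b 28.2 ± 7.37 in distal and 180.4 ± 24.3 in proximal fin, and the transcription factor gene egr2b 28.6 ± 11.1 in distal and 76.5 ± 14.1 in proximal fin (SD, n = 5 each). The myelin protein gene pmp22b, which other tissues also express, was higher, with 4095 ± 786 in distal and 1679 ± 266 in proximal fin. Also higher was the transcription factor gene sox10, named after its values were seen, with 314 ± 22.8 in distal and 199 ± 27.7 in proximal fin. The genes mbpb and erbb3b were the 2 not called. In distal fin pmp22b was the most read gene of the list. Summed over the list, distal libraries held 7265 to 9724 normalized counts, middle libraries 6518 to 7387 and proximal libraries 6630 to 7602, and none of its genes was at 0 in the mean of a position. In the distal fin cldn19 and 8 of the 13 list genes were lower, and cldnk and 3 list genes were higher. The 3 of 13 higher are near the 23.3% higher of all genes with a mean of at least 20, of which 20.8% were lower. The part of nerve content in the values of cldn19 and cldnk was not tested.

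Among claudins with many reads, the rise towards the tip was spread over several genes. For cldni, used as a marker of epidermis in zebrafish, the distal libraries held 12385, 13688, 14113, 13416 and 13241 normalized counts, the middle libraries 9220.43, 8198, 8332, 9708 and 7761 and the proximal libraries 5948, 7411, 6642, 7306 and 6226. The 3 positions did not overlap, and the authors' deposited table has distal fin 1.99-fold higher than proximal fin, with an adjusted p of 1.18e-19. The level of cldnb, an epithelial claudin that marks the lateral line primordium and skin in zebrafish, was 13349.5, 13886, 13453, 13440.3 and 13094 in distal libraries, 12613, 12686, 11853, 12567 and 12027 in middle libraries and 9389, 10024, 10028, 9606 and 10218 in proximal libraries. These too did not overlap, with a smaller difference of 1.36-fold between distal and proximal fin in the authors' deposited table (adjusted p = 0.000118).

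A claudin of the enveloping layer of the zebrafish embryo, cldne, measured 3043, 3139, 2268, 2528 and 2470.32 normalized counts in distal libraries, 1409.76, 1831, 1549, 1418 and 1586 in middle libraries and 1179, 1173, 1078, 1392 and 1560.05 in proximal libraries. Its chromosomal neighbour cldnf measured 489.9, 562, 399.6, 398 and 472 in distal libraries, 269.9, 342, 277, 294 and 297 in middle libraries and 256, 229, 205, 265 and 304 in proximal libraries. In both genes every distal library was above every other library, while middle and proximal libraries overlapped. The authors' deposited table gives 2.11-fold for cldne and 1.84-fold for cldnf, distal over proximal, with adjusted p of 1.2e-12 and 1.2e-08. A smaller difference was called for cldn7b, of the claudin-7 type found in mammals along the sides of epithelial cells, with 3874 ± 385 normalized counts in distal, 3099 ± 141 in middle and 2531 ± 231 in proximal fin. The same holds for cldn12, a claudin without the tail that binds scaffolds in mammals, with 651 ± 39.97 in distal, 560.5 ± 32.1 in middle and 519 ± 51.2 in proximal fin (SD, n = 5 each). The deposited folds of distal over proximal fin were 1.53 for cldn7b and 1.25 for cldn12 in the authors' deposited table, with adjusted p of 1.36e-07 and 0.0185.

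**Figure D2:**
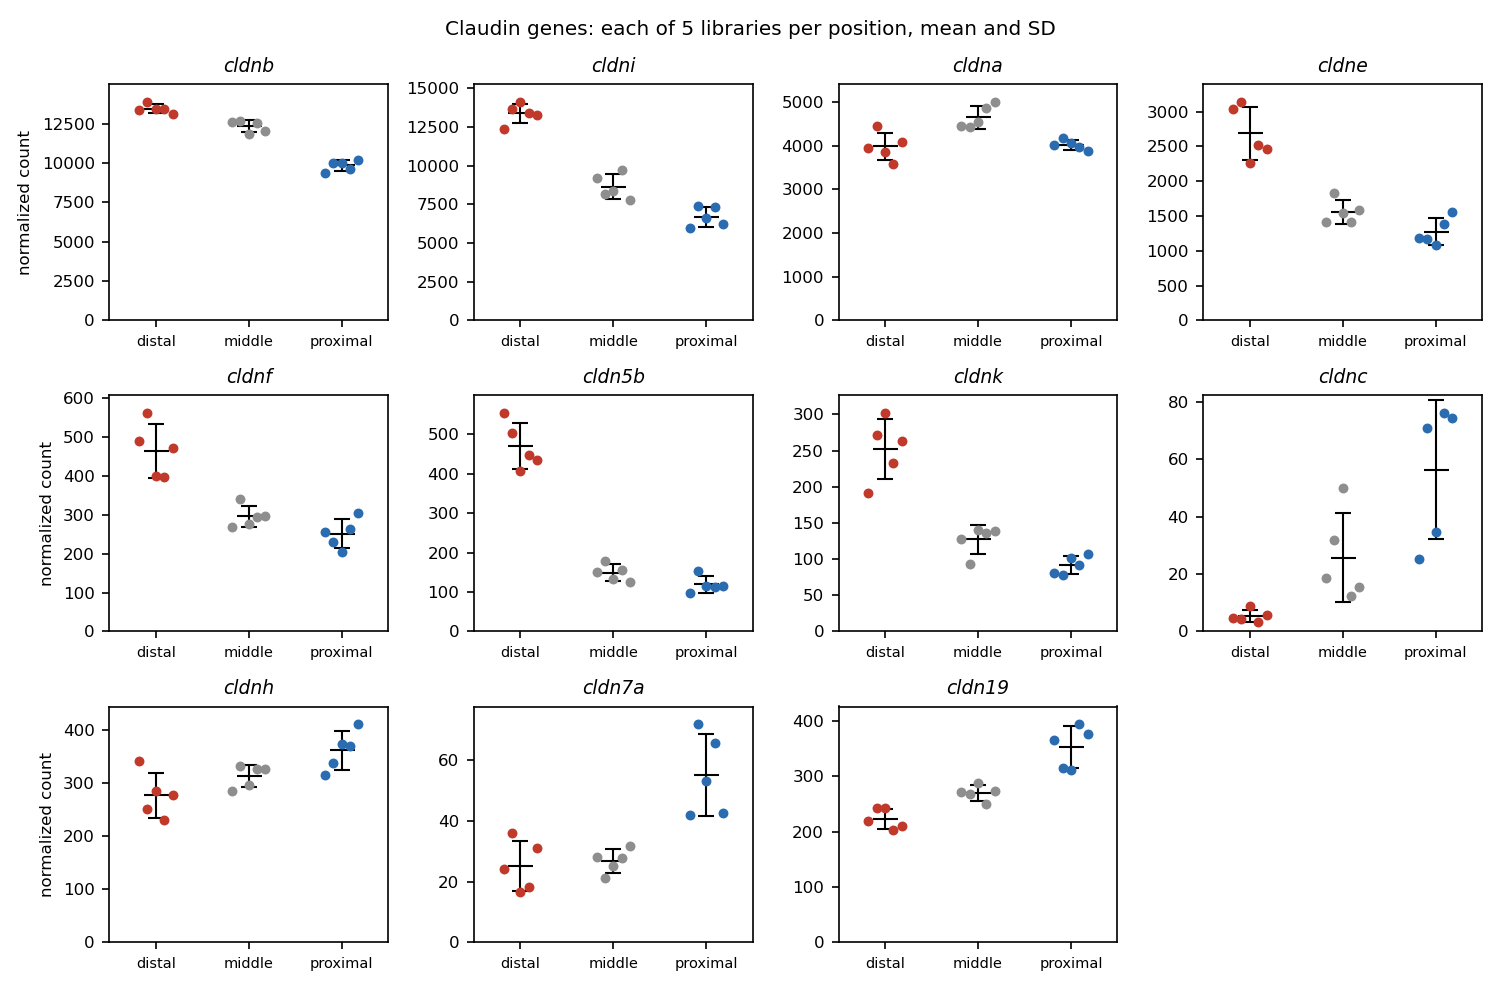
Normalized counts (y axis, from 0, scale differs by panel) of 11 claudin genes in the 5 libraries of distal, middle and proximal fin, with mean and SD in black. In cldnb, cldni and cldn19 the 3 positions do not overlap. The genes cldn5b, cldnk, cldne and cldnf stand apart in distal fin and cldn7a in proximal fin. The mean of cldna is highest in middle fin, where its libraries overlap with the distal ones.

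The strongest fall among claudins with a mean of at least 20 was that of cldnc. It measured 4.83, 4.49, 8.78, 3.2 and 5.67 normalized counts in distal libraries, 18.5, 32.04, 50.05, 12.5 and 15.4 in middle libraries and 25.4, 70.9, 34.8, 76.2 and 74.3 in proximal libraries. The highest distal library lay below the lowest middle library, while middle and proximal libraries overlapped and varied widely. The authors' deposited table has distal fin 10.4-fold lower than proximal fin, with an adjusted p of 1.16e-07. For cldn7a, the duplicate of cldn7b, distal libraries held 24.1, 35.9, 16.5, 18.1 and 31.2 normalized counts, middle libraries 28.2, 21.4, 25.02, 27.9 and 31.7 and proximal libraries 42.03, 71.9, 53.2, 65.7 and 42.7. Here the proximal libraries stood above all others, and distal fin was 2.19-fold lower than proximal fin in the authors' deposited table (adjusted p = 0.000129). In cldnh the values were 342, 251, 286, 230.4 and 279 in distal libraries, 286, 333, 296, 328 and 327 in middle libraries and 316, 338, 375, 371 and 412 in proximal libraries. The 3 positions overlapped, and the 1.31-fold lower level in distal than in proximal fin had an adjusted p of 0.00773 in the authors' deposited table.

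The other 5 claudins called lower in distal fin had few reads. Over all 5 libraries of a position, cldn11a, whose mouse counterpart forms junctions in oligodendrocytes and Sertoli cells, had 4 reads in distal, 57 in middle and 49 in proximal fin. The gene cldn17 had 4 reads in distal, 10 in middle and 31 in proximal fin. For cldn15lb the reads were 4 in distal, 10 in middle and 28 in proximal fin. Reads of cldnd came to 8 in distal, 20 in middle and 45 in proximal fin, and those of cldn10l2 to 1 in distal, 4 in middle and 21 in proximal fin. In all 5 the distal fin had the fewest reads, and cldn11a held its level up to the middle fin. With a mean minimum of 10 all 5 leave the lower calls, which are then 4.

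Most listed genes of 2 epidermal cell types that sit between keratinocytes were, like these claudins, lower in distal than in proximal fin. Of all genes, 17.9% were higher and 18.1% lower. Of 15 ionocyte genes, 11 were lower in distal than in proximal fin and 1 was higher; the sodium and proton exchanger gene slc9a3.2 averaged 1.97 ± 0.965 in distal and 70.8 ± 21.7 normalized counts in proximal fin, the sodium pump gene atp1a1a.3 9.43 ± 2.72 in distal and 160.2 ± 41.1 in proximal fin, the calcium channel gene trpv6 3.58 ± 2.28 in distal and 49.9 ± 15.8 in proximal fin, and the pump subunit gene atp1b1b 6.02 ± 2.85 in distal and 80.2 ± 10.8 in proximal fin (SD, n = 5 each). The defining factors foxi3b and gcm2, named after their values were seen, averaged 0.622 ± 0.571 and 0.189 ± 0.423 in distal fin, against 21.4 ± 6.73 and 13.4 ± 5.06 in proximal fin, and a mean of 0.648 corresponds to 3 reads in the 5 distal libraries. The summed level of the list ran the other way, from 10408 to 14912 normalized counts in distal libraries, from 5412 to 7129 in middle libraries and from 3965 to 5054 in proximal libraries. Most of it was ca2, a carbonic anhydrase gene and the 1 called higher, which averaged 11281 ± 1713 in distal and 2978 ± 338 in proximal fin (SD, n = 5 each). The ionocyte genes atp6v1aa, atp6v1ab and atp1a1a.5 were not called. Of 8 mucous cell genes, 6 were lower in distal than in proximal fin and 1 was higher, and their sum was 1271 to 2098 normalized counts in distal libraries, 8966 to 15465 in middle libraries and 28959 to 33572 in proximal libraries. The mucin gene muc5.2 averaged 229 ± 182 in distal and 26672 ± 2391 in proximal fin, and the mucous cell factor gene foxa3 16.04 ± 4.26 in distal and 172 ± 23.6 in proximal fin. Of genes named after their values were seen, creb3l1 was the higher one, at 1112 ± 149 in distal and 564 ± 49.8 in proximal fin, and muc5.3 was not called. The lower gene pvalb8 was highest in middle fin, with 39.9 ± 14.1 in distal, 214 ± 37 in middle and 94.5 ± 13.7 in proximal fin. The part of these cells in the lower claudins was not tested.

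Of the claudins at a mean of at least 20, 6 were not called between distal and proximal fin. The most read of them was cldna, with 3955, 4446, 3851, 3575 and 4081 normalized counts in distal libraries, 4449, 4417, 4531, 4854 and 5000.39 in middle libraries and 4020.04, 4185, 4068, 3966 and 3870.42 in proximal libraries. All middle libraries were above all proximal ones, and the distal libraries overlapped with both. In the authors' deposited table cldna was called neither between middle and proximal fin (adjusted p = 0.255) nor between distal and middle fin (adjusted p = 0.0766). Limma called both, with adjusted p of 0.0269 and 0.00646. The first limma call was lost without middle library 4 or 5 or proximal library 3, 4 or 5 (0.0505 to 0.0737). The authors' deposited fold was 0.99 for distal over proximal fin (adjusted p = 0.959), and limma gave a log2 difference of -0.02 ± 0.06 (SE). The epidermal barrier claudin of the mouse, cldn1, averaged 901 ± 76.2 normalized counts in distal, 1038 ± 86.8 in middle and 1005 ± 64.8 in proximal fin (SD, n = 5 each), with a limma log2 difference of -0.16 ± 0.08 (SE) between distal and proximal fin. The remaining 4, cldn11b, cldn15b, cldnd1a and cldnd1b, had log2 folds from -0.33 to 0.41 in the authors' deposited table. A further 5 claudins under that mean (cldn2, cldn10a, cldn15a, cldng and cldnj, the last needed for the ear stones of zebrafish) had adjusted p of 0.122 or more there. The gene cldn10b stood only in the table of middle against proximal fin, where it was not called.

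Both occludin genes were higher in distal fin. The values of oclna were 4049, 4339.75, 3760.37, 3639 and 3904 normalized counts in distal libraries, 2623, 3097, 2941, 2709 and 2892 in middle libraries and 2228, 2078, 2246, 2384 and 2684 in proximal libraries. Its duplicate oclnb had 3091, 3559, 3275, 3213 and 2789 in distal libraries, 2479, 2483, 2339.75, 2539 and 2195 in middle libraries and 1606, 2003, 1936, 2010.36 and 2078 in proximal libraries. In both genes the distal libraries stood above all others, and in oclnb the middle libraries also stood above the proximal ones. The authors' deposited table gives 1.7-fold and 1.65-fold for distal over proximal fin, with adjusted p of 2.52e-11 for oclna and 3.56e-10 for oclnb.

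Of the MARVEL genes, marveld2a and marveld2b encode tricellulin. The distal libraries held 495, 428, 399.6, 412 and 521 normalized counts of marveld2b, the middle libraries 281, 349.5, 269.5, 307 and 416 and the proximal libraries 302, 263, 278, 247 and 354. Every distal library was above every proximal one, and the deposited fold was 1.56 with an adjusted p of 2.03e-06 in the authors' deposited table. For marveld2a the values were closer, with 433, 439, 404, 435 and 442 in distal libraries, 428, 414, 399, 368 and 356 in middle libraries and 345, 348, 351, 403 and 394 in proximal libraries. Distal and proximal libraries of marveld2a did not overlap, by a narrow margin, and it was not called in the authors' deposited table, where its fold was 1.17 (adjusted p = 0.145). With limma it was called, at a log2 difference of 0.23 ± 0.07 (SE) and an adjusted p of 0.0134.

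The gene marveld1 measured 359.6, 338, 262, 262 and 286 normalized counts in distal libraries, 172, 198, 179, 129 and 148 in middle libraries and 179.8, 264, 171, 211 and 174 in proximal libraries. Its distal libraries were above all middle ones and overlapped with the highest proximal one, and the deposited fold of distal over proximal fin was 1.51 with an adjusted p of 0.000791 in the authors' deposited table. The least read of the family, marveld3, a tight junction protein in mammals, had 38.6, 59.5, 43.9, 58.7 and 48.2 in distal libraries, 32.1, 37.9, 46.2, 42.3 and 35.95 in middle libraries and 29.3, 45.6, 33.9, 34.3 and 40.9 in proximal libraries. Its positions overlapped, and it was not called in the authors' deposited table (1.35-fold, adjusted p = 0.125), while limma called it with an adjusted p of 0.037. That call was lost without distal library 2, 4 or 5 or proximal library 1, 3 or 4, with adjusted p of 0.0527 (distal library 5) to 0.0969 (proximal library 1).

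Junctional adhesion molecule A is encoded by the neighbours f11r.1 and f11r.2. The first, f11r.1, measured 3406, 3582, 3528, 3160.36 and 3201 normalized counts in distal libraries, 2404, 2534, 2489, 2601 and 2415 in middle libraries and 1770.07, 1765, 1824, 2010.36 and 2025 in proximal libraries. No position overlapped with another. Distal fin was 1.8-fold higher than proximal fin in the authors' deposited table, and the adjusted p was 1.22e-13. The second, f11r.2, had 11.2 ± 6.04 normalized counts in distal, 10.9 ± 2.75 in middle and 13.6 ± 6.14 in proximal fin (SD, n = 5 each) and was not called.

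The zonula occludens scaffolds bind claudins and occludin from inside the cell. Of the 5 genes, tjp1a was higher in distal than in proximal fin and 4 were not called in the authors' deposited table. For tjp1a (ZO-1) the values were 1868, 1380.02, 1565, 1409 and 1376 normalized counts in distal libraries, 1065, 1235, 1214, 1146 and 1084 in middle libraries and 1254, 1170.5, 1311, 1165 and 1346 in proximal libraries. The distal libraries were above all others, and the deposited fold was 1.22 (adjusted p = 0.0388, the authors' deposited table). With the summed reads of the recovered genes as the scale, limma no longer called it (log2 difference 0.19, adjusted p = 0.0636). The recovered genes hold 68.7% of normalized counts in distal and 62.2% in proximal fin, so this scale is not that of whole libraries. Its duplicate tjp1b had 1542, 1538, 1941, 1567 and 1445 in distal libraries, 1181, 1168, 1429, 1513 and 1252 in middle libraries and 1477, 1319, 1407, 1256 and 1451 in proximal libraries, which overlapped.

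For tjp2a (ZO-2), distal libraries held 2399, 2578, 2447, 2294 and 2341 normalized counts, middle libraries 2182, 2321, 2483, 2759 and 2285 and proximal libraries 2169.83, 2213, 2025, 2029 and 2029. Its distal libraries lay above all proximal ones and within the range of the middle ones. Its duplicate tjp2b had 788, 788, 863, 820.2 and 883 in distal libraries, 712, 772, 703, 687 and 771 in middle libraries and 784, 710.1, 764, 688 and 847 in proximal libraries. The distal libraries of tjp2b were above all middle ones and overlapped with the proximal ones. The gene tjp3 (ZO-3), needed for the skin barrier of the zebrafish embryo, measured 2009, 2168, 2078, 1797 and 2334 in distal libraries, 1568, 1964, 1934, 1934 and 2245 in middle libraries and 1975, 1769.84, 1572, 1602 and 1827 in proximal libraries, and all positions overlapped. The 4 genes not called had folds of 1.09 to 1.19 for distal over proximal fin in the authors' deposited table and adjusted p of 0.0515 (tjp3) to 0.408 (tjp2b), and limma called tjp2a and tjp3 among them with log2 differences of 0.20 ± 0.06 and 0.25 ± 0.09 (SE). The limma call of tjp3 (adjusted p = 0.0303) was lost without distal library 2 or 5 or proximal library 3 or 4, with adjusted p of 0.0653, 0.0851, 0.0818 and 0.0768.

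All 3 cingulin genes, coding for plaque proteins that link the junction to actomyosin and microtubules, were higher at the tip. The largest difference was in cgna, with 823, 1411, 1192, 1185 and 1209 normalized counts in distal libraries, 575, 464, 669.9, 663 and 617 in middle libraries and 401, 415, 431, 417 and 399 in proximal libraries. The 3 positions did not overlap, and distal fin was 2.82-fold higher than proximal fin in the authors' deposited table, and the adjusted p was 1.28e-15. Its duplicate cgnb measured 1049.71, 1002, 775, 827 and 1194 in distal libraries, 496, 676, 619, 523 and 709.6 in middle libraries and 617, 486, 556, 497 and 675 in proximal libraries. The paracingulin gene cgnl1 had 1695, 1598, 1427, 1328 and 1733 in distal libraries, 826, 1105, 962, 861 and 972 in middle libraries and 1173, 993, 955, 1089 and 1183 in proximal libraries. Both cgnb and cgnl1 had distal libraries above all others and overlapping middle and proximal libraries, with deposited folds of 1.71 and 1.44 for distal over proximal fin in the authors' deposited table (adjusted p = 9.2e-06 and 1.13e-05).

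**Figure D3:**
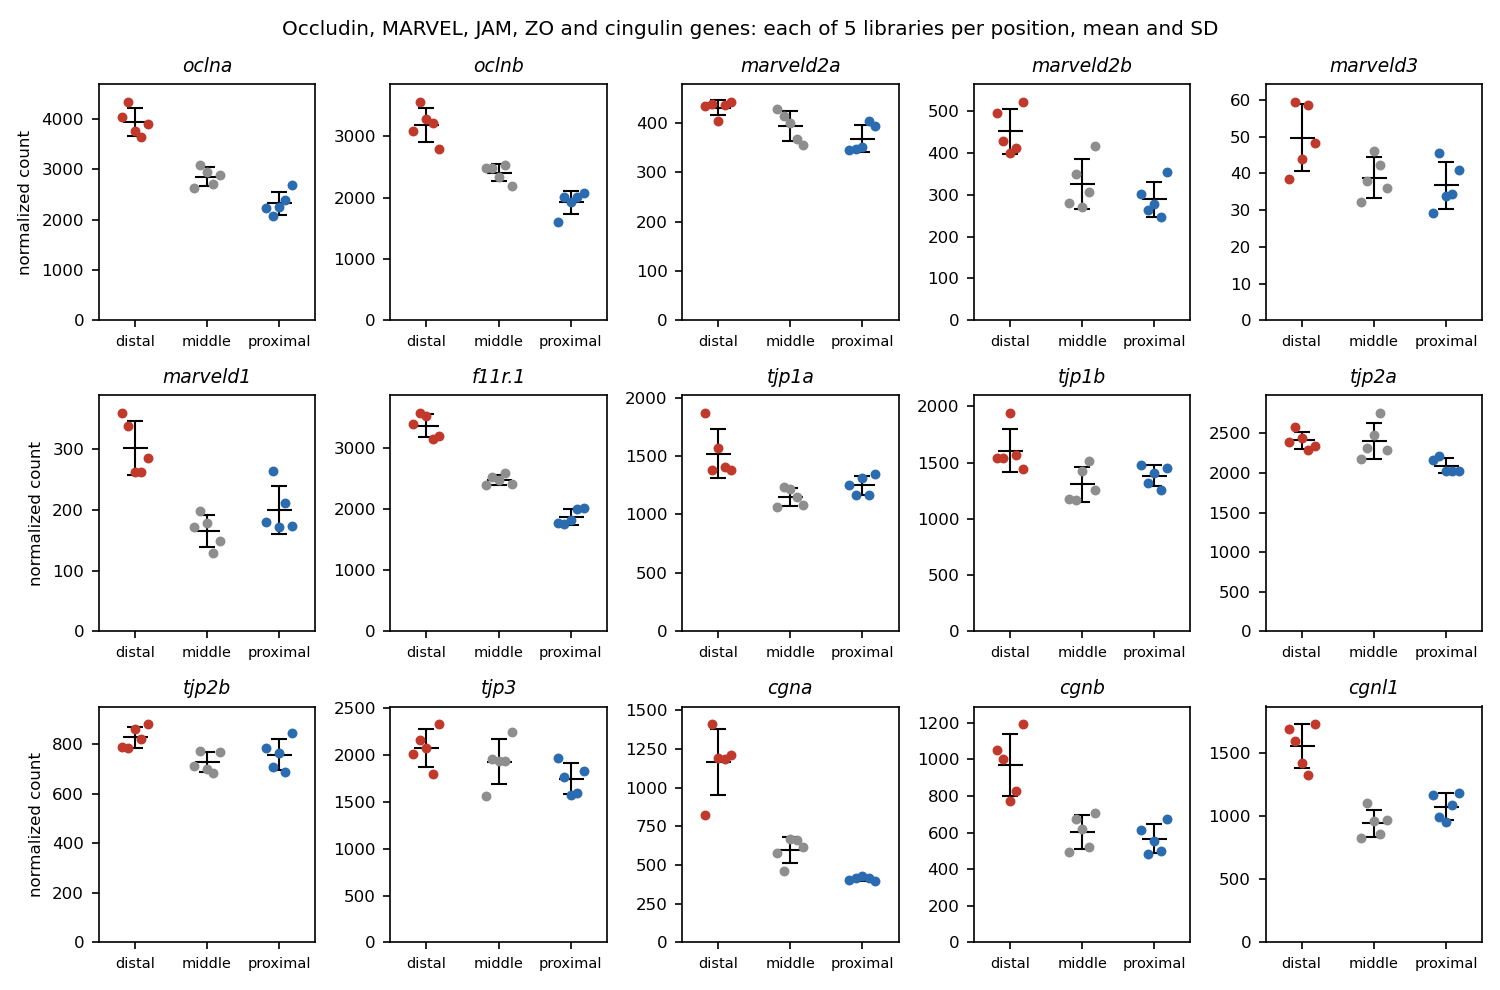
Normalized counts (y axis, from 0, scale differs by panel) of 15 occludin, MARVEL, JAM-A, zonula occludens and cingulin genes in the 5 libraries of distal, middle and proximal fin, with mean and SD in black. In oclnb, f11r.1 and cgna the 3 positions do not overlap, and in tjp1a the distal libraries lie above all others.

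Keratinocyte marker genes were mixed along the fin, and their counts stand beside 17.9% of all genes higher and 18.1% lower in distal than in proximal fin. Among all genes with a mean of at least 20 these shares were 23.3% and 20.8%. Of 12 superficial keratinocyte genes, 7 were higher in distal than in proximal fin and 3 were lower. The summed level of the 10 with recovered values was 102362 to 139606 normalized counts in distal libraries, 95838 to 122416 in middle libraries and 63564 to 79826 in proximal libraries. This sum leaves out the keratin marker krt4, which has no recovered library values. The deposited means of all 12, given below, differed less between the ends of the fin. The keratin gene krt1-19d averaged 18460.2 ± 1194 in distal and 6514 ± 1146 in proximal fin, and agr1 4347 ± 630.3 in distal and 2206 ± 232 in proximal fin (SD, n = 5 each), while krtt1c19e was at 1985 ± 836 in distal, 21583 ± 2576 in middle and 5025 ± 770.4 in proximal fin. This keratin gene stands in the superficial list here but is known from basal keratinocytes in zebrafish. Of 8 basal keratinocyte genes, 3 were higher, 1 lower and 4 not called. The lower one was the keratin gene krt5, the most read of the list in proximal fin, with deposited means of 107569 in distal and 232713 normalized counts in proximal fin (2.16-fold lower in distal fin, adjusted p = 4.08e-08, the authors' deposited table). It has no recovered library values. The 4 with recovered values, among them the hemidesmosome collagen gene col17a1b, summed to 53786 to 71761 normalized counts in distal libraries, 52719 to 65451 in middle libraries and 34355 to 40821 in proximal libraries. That sum leaves out krt5 and runs against the sum of the whole list: the authors' deposited means of all 8 basal genes summed to 403231 in distal and 500783 normalized counts in proximal fin, and those of all 12 superficial genes to 355458 in distal and 333444 in proximal fin. None of these genes was at 0 in the mean of a position, and their part in the higher level of the epithelial claudins, occludins and cingulins was not tested.

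The 2 steps along the fin were unequal in the number of calls. Between middle and proximal fin 6 of 45 genes were higher and 2 lower in the authors' deposited table, where 7.31% of all genes were called, 3.51% as higher and 3.80% as lower. The higher ones were cgna (1.45-fold), cldnk (1.39), f11r.1 (1.33), cldni (1.29), cldnb (1.25) and oclnb (1.25), and the lower ones cldn7a (2.05-fold) and cldn19 (1.31-fold). The call of cldnk is the least firm of these, with an adjusted p of 0.0392 in the authors' deposited table and of 0.0504 with limma. Between distal and middle fin 17 of 43 genes were higher and 2 lower, in a table where 26.2% of all genes were called, 13.3% as higher and 12.9% as lower. Fold changes of distal over middle fin in the authors' deposited table were 3.13 for cldn5b, 1.97 for cldnk, 1.94 for cgna, 1.81 for marveld1, 1.72 for cldn5a, 1.72 for cldne and 1.64 for cgnl1. The lower genes were cldnc (4.8-fold) and the little read cldn11a. Of the 5 zonula occludens genes, tjp1a (1.31-fold) and tjp1b (1.22-fold) were called higher in distal than in middle fin, and 3 were not called. The distal and middle libraries of tjp1b overlapped, and its adjusted p was 0.0376 in the authors' deposited table. At a mean of at least 20, 6 of 34 members were higher and 2 lower between middle and proximal fin, beside 4.67% and 4.63% of all genes at that level (9.31% called), and 17 of 33 were higher and 0 lower between distal and middle fin, beside 17.4% and 15.0% (32.4% called). At an unadjusted p under 0.05 the authors' DESeq test had 2 of these 33 lower (cldn19 and cldna), and limma called 3 lower (also cldn1) at an adjusted p under 0.05. The limma call of cldn1 (adjusted p = 0.0396) was lost without any 1 of distal libraries 1, 2 and 3 and middle libraries 2, 3 and 4 (0.0623 to 0.107), and that of cldn19 (0.0196) without distal library 4 (0.0534). Libraries did not overlap for 9 of the 34 members between middle and proximal fin, beside 11.6% of all genes at that level, and for 19 of the 33 between distal and middle fin, beside 28.3%. The 3 tables share their libraries in pairs, so their calls are not independent of each other.

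**Figure D4:**
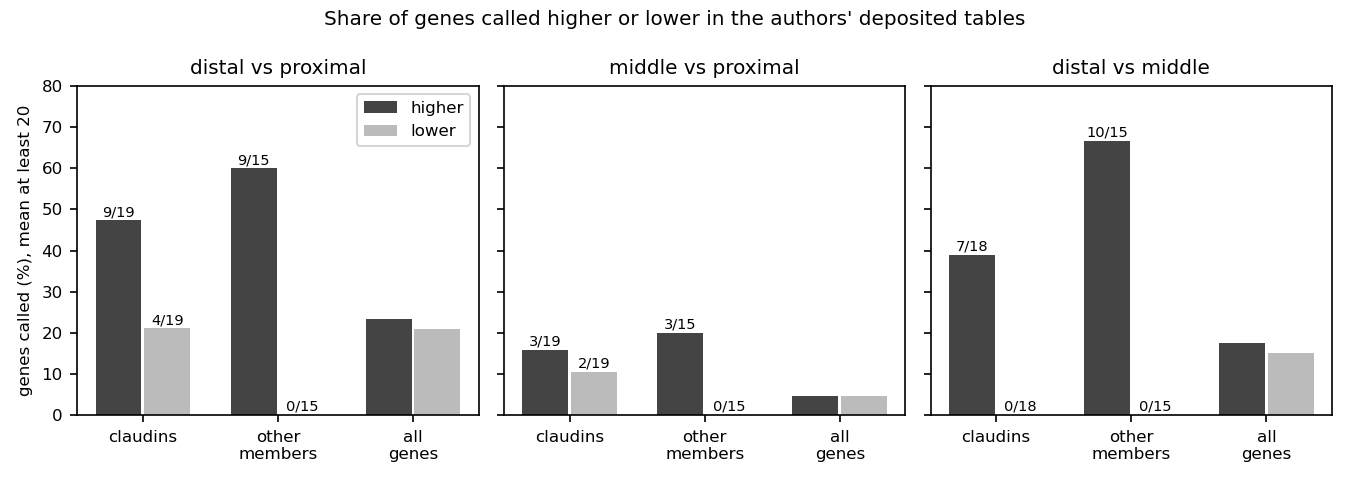
Percentage of genes called higher (dark bars) or lower (light bars) in each of the authors' deposited tables, among genes with a mean of at least 20 normalized counts, for claudins, the other members and all genes; counts stand above the bars. For distal against proximal fin, 9 of 19 claudins and 9 of 15 other members were higher, beside 23.3% of all genes.

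Whether the step from middle to distal fin differed from the step from proximal to middle fin was tested in limma, a contrast chosen after the values were seen. Of 37 members tested, 5 had a larger second step and 2 a smaller one at an adjusted p under 0.05, and of all genes tested 11.5% passed, 5.96% with a larger and 5.52% with a smaller second step. The second step exceeded the first by 1.33 ± 0.22 in log2 units (SE) for cldn5b (adjusted p = 0.000474), by 1.14 ± 0.25 for marveld1 (adjusted p = 0.00446), by 0.91 ± 0.16 for cgnl1 (adjusted p = 0.000816), by 0.98 ± 0.25 for cldn5a (adjusted p = 0.0153) and by 0.52 ± 0.14 for tjp1a (adjusted p = 0.0244). Without middle library 4 the adjusted p of cldn5a was 0.0517, and that of tjp1a was 0.0785 without middle library 1 and 0.0711 without middle library 5. The genes with a smaller second step were cldna, at -0.43 ± 0.10 (adjusted p = 0.0104), and cldn11a, at -3.69 ± 0.66 with few reads. In cldna this goes with its middle libraries lying above the proximal ones, and in cldn11a with a level that held to the middle fin.

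Members that are duplicates or chromosomal neighbours were compared within each library, as the log2 ratio of their reads with 0.5 added to each. In the RefSeq gene list of the GRCz12tu assembly, in which all 46 members were matched, cldnj, cldne, cldnf and cldna follow each other on chromosome 15, as do cldnh, cldnc and cldnb on chromosome 21, with cldnd 1 protein-coding gene further on. Each occludin gene adjoins a tricellulin gene, oclna with marveld2a on chromosome 10 and marveld2b with oclnb on chromosome 5. Of 20 such pairs, 14 had both genes at a mean of at least 20 in at least 1 position, and 9 of these had ratios that differed between distal and proximal fin after adjustment over the 14. The 9 include cldnc with cldnb and cldnh with cldnc, which entered only through middle and proximal fin, where cldnc was high. That filter favoured a difference in these pairs. The test was an exact two-sided permutation test over 5 against 5 libraries, whose smallest p is 0.00794. At an unadjusted p under 0.05 the count was also 9 of 14, with 5 of the 6 neighbours and 4 of the 8 duplicates. The same test over all 7705 pairs of neighbouring protein-coding genes at that level gave 56.9%, so unequal neighbours are frequent in these libraries, and the counts are given as a description.

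In 4 duplicate pairs the ratio differed between the ends of the fin. The log2 ratio of cldn5a to cldn5b averaged -2.48 ± 0.28 in distal and -1.09 ± 0.09 in proximal libraries, and that of cldn7a to cldn7b -7.29 ± 0.41 in distal and -5.54 ± 0.36 in proximal libraries (SD, n = 5 each; exact permutation p = 0.00794, adjusted 0.0159 for both). The ratio of marveld2a to marveld2b was -0.06 ± 0.14 in distal and 0.36 ± 0.22 in proximal libraries (exact permutation p = 0.00794, adjusted 0.0159), and that of cgna to cgnb 0.26 ± 0.41 in distal and -0.45 ± 0.23 in proximal libraries (exact permutation p = 0.0238, adjusted 0.037). Other duplicates gave differences that did not pass the test, with log2 ratios that moved by 0.04 for oclna and oclnb, 0.06 for tjp1a and tjp1b, 0.08 for tjp2a and tjp2b, and -0.33 for cldnd1a and cldnd1b (exact permutation p = 0.706, 0.706, 0.389 and 0.294). The oclna to oclnb ratio lay between 0.18 and 0.49 in distal libraries and between 0.05 and 0.47 in proximal libraries.

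Of the 6 neighbouring pairs, 5 differed. On chromosome 21 the ratio of cldnc to cldnb fell by 3.64 log2 units in distal relative to proximal fin, and that of cldnh to cldnc was 2.80 higher. The mean of cldnc was 25.7 in middle and 56.3 in proximal fin, but 5.39 in distal fin. Both pairs therefore entered the test only through positions where cldnc was high. Their tests lend no support for that reason, though they count among the 5 that differed. On chromosome 15 the ratio of cldnf to cldna was 0.90 higher in distal than in proximal libraries (exact permutation p = 0.00794, adjusted 0.0159), while that of cldne to cldnf differed by 0.19 (exact permutation p = 0.0238, adjusted 0.037). The ratio of oclna to marveld2a was 0.53 higher in distal than in proximal libraries (exact permutation p = 0.00794, adjusted 0.0159), and that of marveld2b to oclnb differed by -0.08 (exact permutation p = 0.619). Reads of similar duplicates may have been assigned to the wrong copy or dropped, and how such reads were counted is not given in the sources used here.

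**Figure D5:**
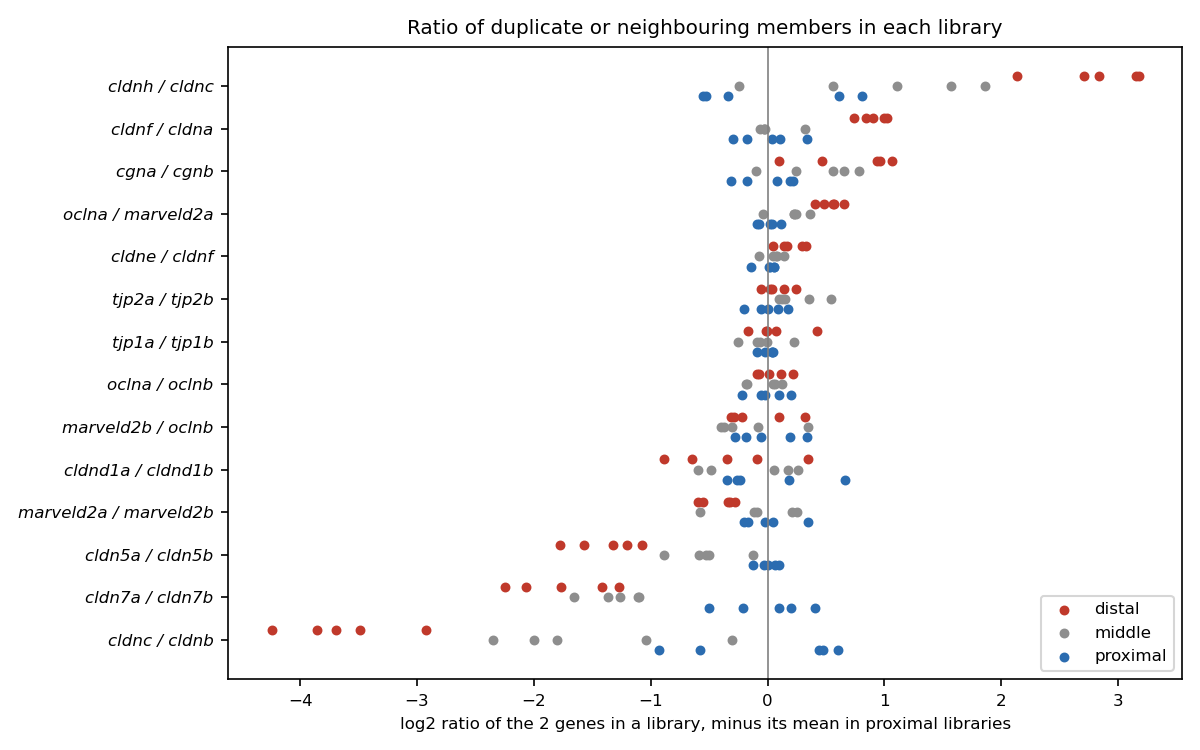
Log2 ratio of reads of 2 duplicate or neighbouring genes in each library, minus the mean of the proximal libraries (x axis), for the 14 pairs tested (rows), with distal above middle above proximal libraries in each row. Distal ratios of cldnc to cldnb lie furthest to the left and those of cldnh to cldnc furthest to the right, while pairs such as oclna and oclnb stay around 0. Both cldnc pairs entered only through middle and proximal fin, where cldnc was high.

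Further genes of the junction were counted from lists. Of 15 genes of other junctional adhesion molecules, angulins and nectins, 7 were higher in distal than in proximal fin and 1 was lower in the authors' deposited table. The coxsackievirus and adenovirus receptor gene cxadr averaged 2446 ± 208 normalized counts in distal, 1379 ± 164 in middle and 1022 ± 45.7 in proximal fin, and the adhesion molecule gene jam3b 835 ± 113 in distal, 454 ± 17.7 in middle and 399.8 ± 62.2 in proximal fin (SD, n = 5 each). The adhesion gene igsf11 was at 291 ± 32.3 in distal and 169.6 ± 20.6 in proximal fin, and ildr2, an angulin gene, was the lower one, at 42.6 ± 7.87 in distal and 76.4 ± 13.2 in proximal fin. Of 34 polarity and scaffold genes, 9 were higher, 2 lower and 23 not called. Of all genes 17.9% were higher and 18.1% lower, and of those with a mean of at least 20, 23.3% and 20.8%. The PAR complex gene pard6a averaged 1558 ± 169 in distal, 545 ± 85.4 in middle and 344 ± 63.7 in proximal fin, the angiomotin gene amotl2b 3467 ± 522 in distal and 1033 ± 242 in proximal fin, the scaffold gene magi3b 1255 ± 141 in distal and 532 ± 107 in proximal fin, and the Crumbs gene crb3b 211 ± 6.49 in distal and 129 ± 29.8 in proximal fin. These 4 had the largest folds among the called genes of the list. The 2 lower genes, named after their values were seen, were scrib and ybx1. The level of scrib was 3431 ± 365 in distal and 4572 ± 206 in proximal fin, and that of ybx1 12872 ± 1002 in distal and 16723 ± 796 in proximal fin.

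Of 13 transcription factor genes of epithelial barriers, 8 were higher in distal than in proximal fin and 3 lower. The grainyhead gene grhl3 averaged 4455 ± 935 in distal, 2381 ± 363 in middle and 1625 ± 201 normalized counts in proximal fin, and klf4, coding for a Krüppel-like factor of the skin barrier in the mouse, 12186 ± 1918 in distal, 6940.21 ± 970.2 in middle and 4572 ± 713 in proximal fin (SD, n = 5 each). Lower were grhl2a, at 914 ± 93.1 in distal, 2429 ± 214 in middle and 2846 ± 188 in proximal fin, and the ionocyte factors foxi3a and foxi3b. Of the grainyhead genes, grhl1 and grhl2b were also higher in distal fin, with log2 folds of 0.68 and 0.45 (adjusted p = 2.29e-09 and 0.00268, the authors' deposited table), so 3 were higher and grhl2a lower. These shares stand beside 17.9% of all genes higher and 18.1% lower, and 23.3% and 20.8% of those with a mean of at least 20. Osteoblast genes, of which 6 of 11 were higher and 1 lower, and skeletal muscle genes, of which 1 of 5 was lower, were counted as markers of other tissues of the fin.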

How the data were processed

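The labels describe 15 libraries of caudal fin from AB wild-type zebrafish, 5 each from the distal, middle and proximal region, made from total RNA (TRIzol) after rRNA depletion and sequenced in pairs of 50 bp. Per the submitters' processing notes the authors used the GRCz10 genome, DESeq, HTSeq and TopHat2 (version 2.0.13), in roles that are not stated. The sources used here do not name the annotation counted or say whether strand was used. In each of the 3 tables of pairs that the authors deposited, a signal value is the mean normalized read count of a position, per the file headers and the values. The deposited fold is the ratio of these means, the deposited log2 is its log2, and each deposited p-value comes from DESeq as the authors ran it, beside its Benjamini-Hochberg adjustment over the table. A further deposited table of monotonic genes gave signal means for checking the recovered counts. It also gave the size factors of all 15 libraries, which normalize every library value here and scale the main limma fit. Means of library values therefore differ slightly from the means in the tables of pairs. The score in the monotonic table, computed by the authors, was used in no result. Calls are the authors' adjusted p under 0.05, and no sample was left out. The 46 members, the gene lists and the rule for naming genes were chosen with earlier results of these data known, and so were the tests.

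Each deposited mean is printed to 15 digits and adds up 5 read counts after division by 5 size factors; lattice reduction in Python 3.11.15 returned those counts. A unique answer was found for 23461 of the 23495 genes with a deposited mean for all 3 positions. As a check, size factors were fitted on 391 distal, 436 middle and 445 proximal means of the monotonic table, which were not used in recovering the counts. With them, all of another 567 distal, 570 middle and 570 proximal means were recomputed within 1e-13. On simulated data every unique answer was right. Genes solved hold 68.7%, 65.9% and 62.2% of normalized counts in distal, middle and proximal fin. Recovered counts were fitted in limma 3.58.1 (voom, R 4.3.3, keeping genes that reach 10 reads in 5 or more libraries) as an alternative; edgeR was planned only for deposited counts per library and was not run. Counts of all 15 libraries were simulated and fitted together, with 18747 genes tested. Between distal and proximal fin this gave calls for 41.8% of the genes changed 1.5-fold, 92.5% of those changed 2-fold and 100% of those changed 4-fold, and for 4 unchanged genes. The simulation changed 200 genes and gave every gene the same dispersion between libraries. Its shares therefore do not carry over to genes that vary less or more than that. Alternatives were other scales, no filter on low counts, a mean minimum of 10, an adjusted p under 0.01, and leaving out each library. The other scales were the summed reads (recovered totals) and the upper quartile of the recovered genes, and so left out the genes not solved. Values in every library are given for up to 6 called members each way with the largest distal to proximal log2 fold and a mean of at least 20. They are also given for up to 3 each way in the other comparisons, the 3 most read claudins, and the other families' members at that mean in any position. Of each list up to 4 called genes are named by the size of their fold, and some others were named after their values were seen. Nothing beyond the labels says how the pools relate, so p-values measure the spread between these pools. A principal component separated the positions (71.3% of the variance in the 1000 most variable genes), and no library stood with another position. Protein and promoter sequences were not used here.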

Additional observations from a re-analysis of the deposited data

Results flagged for a closer look

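Of 78 groups of 5 libraries (26 genes in 3 positions), 3 had a library whose gap to the nearest other exceeded 0.71 of the group's range, the 95% critical value of Dixon's test for 5 samples, and chance gives about 1 in 20. For cldnk, middle library 2 was the lowest at 93.19 normalized counts, with the nearest at 127.6. For marveld2a, distal library 3 was the lowest at 404.0, with the nearest at 433.2. For tjp1b, distal library 3 was the highest at 1941.12, with the nearest at 1566.85.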

How the results depend on the processing

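No paired analysis was possible because the recovered libraries carry no replicate numbers and the deposited tables hold means. Each deposited call of the 26 named genes held in every limma fit with 2 exceptions. These were cldnk between middle and proximal fin, and tjp1a between distal and proximal fin with recovered totals as the scale (0.19). For distal against proximal fin, the count of lower genes (9) became 4 with a mean minimum of 10, 5 with limma and 4 with limma on only those 2 positions. For middle against proximal fin, 6 higher and 2 lower genes became 3 and 1 at an adjusted p under 0.01, and the lower ones 4 with limma without a filter. For distal against middle fin, the 2 lower genes became 1 with a mean minimum of 10 and 4 with limma on only those 2 positions. They became 5 with limma under its filter, without it, and with recovered totals or the upper quartile as the scale. Higher genes for distal against proximal fin numbered 18 as deposited and 22 with limma. With recovered totals as the scale limma gave 17 of them, and with the upper quartile 18. Leaving out 1 library at a time, limma gave 20 to 23 higher and 5 to 6 lower genes for distal against proximal fin, 7 to 9 and 2 to 3 for middle against proximal fin, and 17 to 20 and 4 to 5 for distal against middle fin. The log2 difference of tjp2a between distal and middle fin, -0.01 as deposited, was 0.0070 with limma, 0.0070 without the filter, 0.0071 with only those 2 positions and -0.0268 to 0.0575 without 1 library, and that of cldna between distal and proximal fin ran from -0.0582 to 0.0203, above 0 without distal library 4. Small log2 ratios changed sign without 1 library for oclna to oclnb (-0.0172 to 0.0877), tjp1a to tjp1b (-0.0270 to 0.1199) and marveld2b to oclnb (-0.1810 to 0.0030). The cause of these changes was not tested. The median log2 difference of all genes between distal and proximal fin was -0.0151 with limma. It was -0.0930 with recovered totals as the scale, the furthest from 0 under any scale. Depth limits the 11 members under a mean of 20 normalized counts.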

Other observations

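Of the 19 genes called claudin, occludin or MARVEL only in the name column or the reference list, 18 were measured between distal and proximal fin, and 6 were higher and 4 lower in distal fin in the authors' deposited table, beside 17.9% of all genes higher and 18.1% lower. At a mean of at least 20 there were 9 of these genes, and 8 were called, beside 44.1% of all genes at that level.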
